A study of Mus musculus with 20 samples.

Results

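The 35 genes described here belong to glycolysis and to the response to low oxygen, and they were taken by name from the 45706 genes counted in every sample. They comprise 10 genes of glucose uptake and of the preparatory steps of glycolysis, 6 of its payoff steps, 6 that handle lactate and pyruvate, 4 hypoxia-inducible factors and their oxygen sensors, and 9 targets of these factors. They were followed in PyMT mice, in which the *MMTV* promoter drives the polyoma middle T oncogene in the mammary epithelium and breast tumors arise. The 8 tumors came from 18-week-old mice, 4 controls with an intact or floxed *Ctsd* gene and 4 *MMTV-cre;Ctsd-/-* animals, in which the cre recombinase, under the same promoter as the oncogene, removes the gene of the lysosomal protease cathepsin D from the epithelium while stromal cells keep it. The 12 cell samples were spontaneously immortalized primary tumor cells of 1 *Ctsd+/+* and 1 *MMTV-cre;Ctsd-/-* PyMT mouse, kept for 10 days (1% FCS) or for 12 weeks (1% FCS LT) in medium with 1% fetal calf serum, with 3 samples in each of the 4 groups. Because each genotype of the cells is a line of its own from 1 mouse, line and genotype cannot be told apart, and p-values measure the spread between samples of a line.

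Glycolysis splits glucose into pyruvate in 10 enzymatic steps with a small yield of ATP, and cancer cells often run it at a high rate and release the pyruvate as lactate. The hypoxia-inducible factors HIF1α (*Hif1a*) and HIF2α (*Epas1*) are made constantly and, with oxygen present, are hydroxylated by prolyl hydroxylases such as those of *Egln1* and *Egln3* and degraded. In low oxygen they persist, bind DNA at sites with the core RCGTG, and raise glucose transporters, glycolytic enzymes, the angiogenic factor *Vegfa*, acid-handling carbonic anhydrases and collagen prolyl hydroxylases. Several of the prolyl hydroxylase genes, *Egln3* among them, are themselves targets of the factors.

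The RNA was sequenced and the authors deposited read counts per gene. Totals on genes were 49725437 to 64291587 per tumor and 33622831 to 40239762 per cell sample, and levels are given as CPM, counts scaled to the library's normalised total. *Ctsd* was measured at 1781 to 2617 CPM in the control tumors and at 360 to 1295 CPM in the *MMTV-cre;Ctsd-/-* tumors, and at 1267 to 4199 CPM in *Ctsd+/+* cells and 114 to 192 CPM in *Ctsd-/-* cells, in keeping with the genotype labels. Other libraries stood apart by cell type markers, which were summed over lists of 8 genes each. The adipocyte list lay at 870 to 5945 CPM in the control tumors and at 3972 to 26000 CPM in the *MMTV-cre;Ctsd-/-* tumors, with all 8 markers higher at an unadjusted p under 0.1, and tumors 3 and 4 of the latter group also had the highest endothelial sums (407 and 378 CPM against 73.5 to 156 CPM in the other 6). In the cells the adipocyte list summed to 46.3 to 108 CPM, nearly all of it *Pnpla2*, a lipase gene of many tissues. *Fabp4* had at most 76 counts in a cell sample, and *Adipoq*, *Plin1* and *Cfd* had at most 1. The 1% FCS *Ctsd+/+* cells held 1473 to 3629 CPM of the fibroblast list and 962 to 2087 CPM of the epithelial list, while the other 3 cell groups held 3.24 to 104 CPM and 5503 to 12460 CPM. In these cells *Col1a1* averaged 1437 CPM, *Pdgfrb* 468 CPM, *Postn* 213 CPM, *Col3a1* 107 CPM and *Pdgfra* 37.8 CPM. *Col1a2* averaged only 2.27 CPM and *Dcn* 0.742 CPM, against 509 and 259 CPM in control tumors, and *Lum* had no counts. The part of these lists in the results that involve those samples was not tested in the cells.

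**Figure D1:**
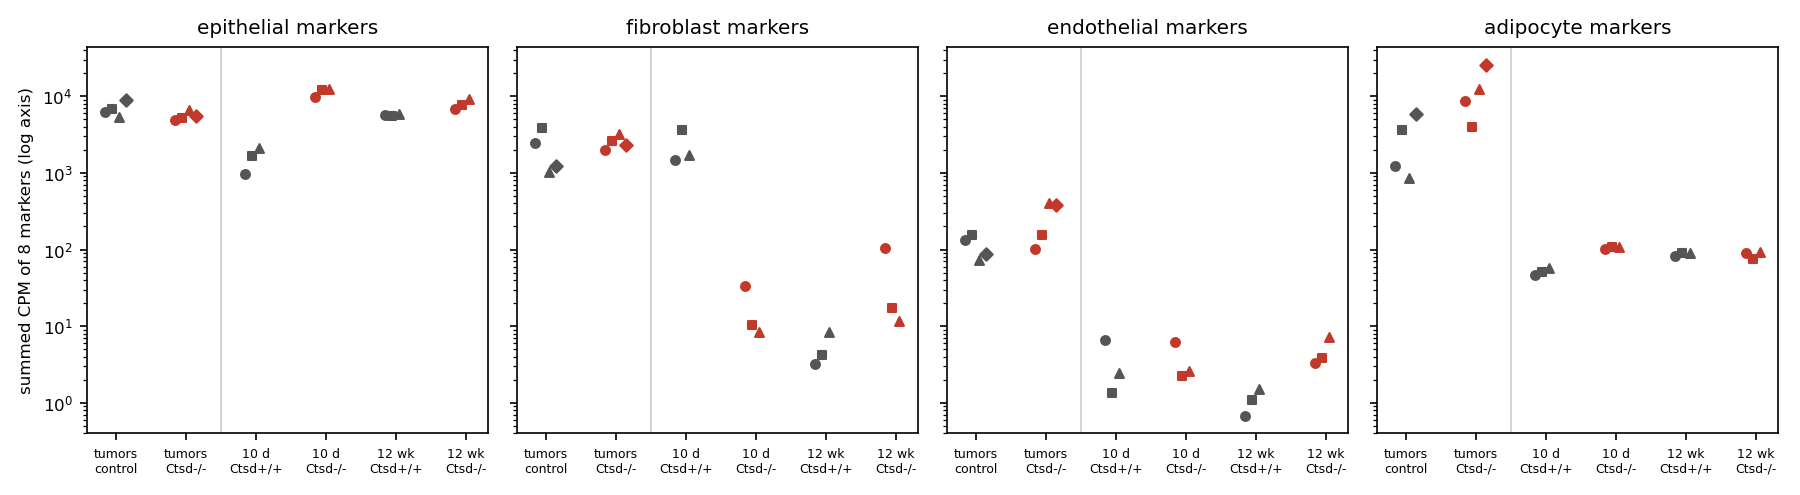
Summed CPM (log axis) of 4 lists of 8 cell type markers in each of the 20 samples, by group; each symbol is 1 sample, and symbol shapes mark replicate numbers. The 3 samples of 1% FCS Ctsd+/+ cells (10 d) have the lowest epithelial sums (962 to 2087 CPM) and fibroblast sums of 1473 to 3629 CPM, and MMTV-cre;Ctsd-/- tumors 3 and 4 have the highest endothelial sums.

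The HIF core was looked for as ACGTG or GCGTG on either strand in the RefSeq windows of GRCm38.p6 that run from 250 bases before to 50 bases after a transcription start. The list matched 46 windows of 33 genes, and *Epas1* and *Ndrg1* were not matched. At least 1 core was present in 36 of the 46 windows (78.3%), and in 43.8% of the 32851 windows of all genes, in which promoters rich in CG are not set apart. The stretches printed here are the bases before the start that lie in no annotated exon, for *Slc2a1*, *Pdk3*, *Vegfa*, *P4ha1* and *Ankrd37*, which were lower in *Ctsd-/-* cells at both times, and for *Egln3*, which had the largest fold change of the list. They are written 5′ to 3′ on the strand of the gene, with each core in capitals, and a core that reaches into an exon is not marked. Where a gene had several windows, the longest such stretch is printed. The stretch of *Vegfa* holds no core, while another of its windows holds 2 that lie in annotated exon sequence. The stretch of *P4ha1* holds 3, and a match is a match of letters only. The stretches lie at chr4:119108495-119108710 (+) for *Slc2a1*, chrX:93832202-93832400 (-) for *Pdk3*, chr17:46032378-46032627 (-) for *Vegfa*, chr10:59323046-59323295 (+) for *P4ha1*, chr8:45999868-46000100 (-) for *Ankrd37* and chr12:54203875-54204124 (-) for *Egln3*.
Slc2a1: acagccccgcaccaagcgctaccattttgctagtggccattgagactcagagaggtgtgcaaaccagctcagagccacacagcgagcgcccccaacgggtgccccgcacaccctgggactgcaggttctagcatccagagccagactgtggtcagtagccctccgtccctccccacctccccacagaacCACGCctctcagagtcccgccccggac
Pdk3: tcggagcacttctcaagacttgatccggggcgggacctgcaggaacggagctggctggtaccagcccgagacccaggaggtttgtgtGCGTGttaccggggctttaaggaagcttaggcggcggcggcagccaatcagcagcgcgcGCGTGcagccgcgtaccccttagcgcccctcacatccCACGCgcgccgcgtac
Vegfa: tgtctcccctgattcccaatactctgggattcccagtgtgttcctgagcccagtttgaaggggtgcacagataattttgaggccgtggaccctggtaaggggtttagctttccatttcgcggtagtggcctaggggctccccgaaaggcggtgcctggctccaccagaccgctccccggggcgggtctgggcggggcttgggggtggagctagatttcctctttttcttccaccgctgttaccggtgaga
P4ha1: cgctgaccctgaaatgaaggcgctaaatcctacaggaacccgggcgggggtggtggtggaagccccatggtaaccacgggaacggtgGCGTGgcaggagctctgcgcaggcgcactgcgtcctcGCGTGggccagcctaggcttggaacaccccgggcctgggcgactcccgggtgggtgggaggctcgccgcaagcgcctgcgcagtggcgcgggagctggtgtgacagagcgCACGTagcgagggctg
Ankrd37: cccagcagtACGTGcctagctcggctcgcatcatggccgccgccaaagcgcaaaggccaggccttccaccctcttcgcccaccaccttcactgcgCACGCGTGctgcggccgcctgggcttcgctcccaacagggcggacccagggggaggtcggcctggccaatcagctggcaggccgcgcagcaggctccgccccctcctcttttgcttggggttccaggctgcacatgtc
Egln3: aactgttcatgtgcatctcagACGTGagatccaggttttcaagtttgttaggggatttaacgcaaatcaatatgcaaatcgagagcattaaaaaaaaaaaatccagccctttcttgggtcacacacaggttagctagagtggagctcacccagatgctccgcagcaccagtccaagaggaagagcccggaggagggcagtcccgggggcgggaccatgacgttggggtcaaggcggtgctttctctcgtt

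All 35 genes passed the filter on low counts in tumors and in cells. Set against exon length, as CPM per kb, *Aldoa* (aldolase A), *Ldha* (lactate dehydrogenase A) and *Pkm* (pyruvate kinase) led the list in the control tumors with 915, 791 and 360 CPM per kb. In all 4 cell groups *Pkm* led with 468 to 638 CPM per kb, followed by *Gapdh* with 312 to 376 CPM per kb. The lowest members were *Eno2*, *Slc16a3* and *Vegfa* in control tumors (0.365, 0.530 and 1.28 CPM per kb). Tumors and cells were counted from different strand columns and no test was made between them. Side by side, *Aldoa*, *Aldoc*, *Ldha*, *Ldhb*, *Car12*, *Bnip3* and *Adm* were higher in every tumor than in every cell sample. *Slc2a1*, *Hk2*, *Pgam1*, *Slc16a1*, *Hif1a*, *Vegfa*, *Egln1* and *P4ha1* were lower in every tumor than in every cell sample. The share of all genes that lie apart in this way was not determined. The separation is thus not read as a trait of the list. The widest gaps were those of *Car12*, with 79.1 to 208 CPM in tumors and 0.876 to 6.39 CPM in cells, of *Aldoc*, with 276 to 1274 and 4.48 to 35.5 CPM, and of *Vegfa*, with 4.55 to 10.1 and 58.0 to 520 CPM.

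Isozyme balances are given here as shares of the summed CPM per kb with no test. *Aldoc*, the aldolase best known from brain, made up 27.5% ± 9.41 (SD, n = 4) of aldolase transcripts in control tumors and 17.0% ± 11.2 (n = 4) in *MMTV-cre;Ctsd-/-* tumors, but 1.01% to 3.13% as the mean of the 4 cell groups. *Ldhb*, the lactate dehydrogenase subunit that favours lactate oxidation, stood at 17.2% ± 4.17 and 18.5% ± 2.17 of lactate dehydrogenase in the tumor groups and, at 12 weeks, at 1.18% ± 0.403 (n = 3) in the *Ctsd+/+* and 6.77% ± 2.01 (n = 3) in the *Ctsd-/-* line. *Hk2*, the inducible hexokinase, was 12.3% ± 2.64 of *Hk1* and *Hk2* in control tumors and 28.4% to 29.8% in the cell groups. *Pfkp*, the platelet phosphofructokinase, was 10.4% ± 1.06 of the 3 phosphofructokinases in 1% FCS *Ctsd+/+* cells and 2.85% to 3.69% in the other 3 cell groups. *Pfkl*, the liver form, made up 63.0% to 77.3% in every group.

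**Figure D2:**
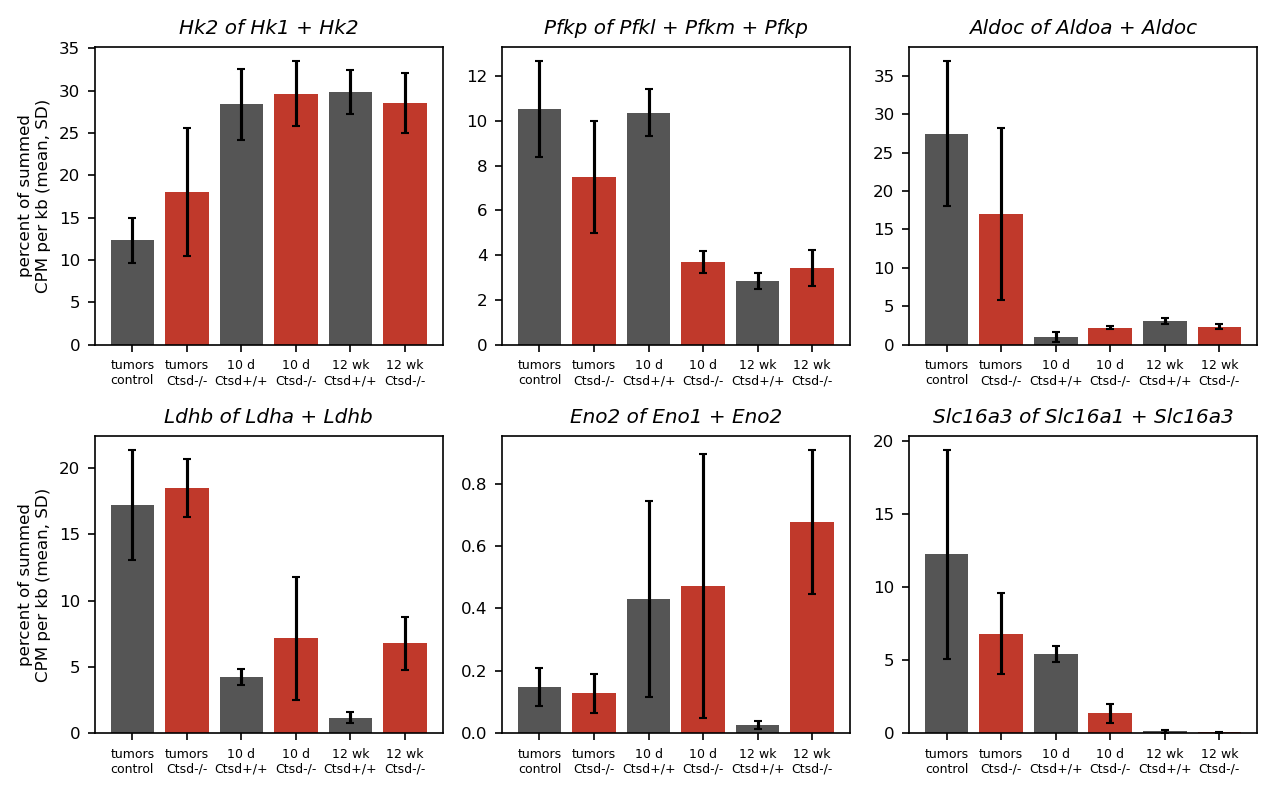
Share (percent of the summed CPM per kb, bars start at 0) of 1 isozyme or transporter in its family in the 6 groups; bars are group means, error bars SD, n = 4 tumors or 3 cell samples. Aldoc and Ldhb hold their largest shares in tumors, and the Ldhb share in 12-week Ctsd+/+ cells (1.18%) is below that of 12-week Ctsd-/- cells (6.77%).

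The first comparison asked how the genes differ between *MMTV-cre;Ctsd-/-* and control tumors. By edgeR's quasi-likelihood test at the study's unadjusted threshold of p under 0.1, 5 of the 35 genes were higher (*Hk2*, *Slc16a1*, *Epas1*, *Vegfa* and *Egln1*) where 8.44% of the 18617 genes tested were, and 2 were lower (*Aldoc* and *Car12*) where 8.27% of all were. None had an adjusted p under 0.05 and the lowest adjusted p of the list was 0.465. The median log2 fold change was 0.17 for the list and 0.00 for all genes. *Vegfa* had all its *MMTV-cre;Ctsd-/-* values above the controls, which 2.26% of all genes had, and *Car12* and *Ldha* had all of them below, which 1.89% of all genes had. Of the 10 genes of uptake and the preparatory steps *Hk2* and *Aldoc* were called. The 6 genes of the payoff steps gave no call and lay between -0.31 (*Pgk1*) and 0.39 (*Eno1*) on the log2 scale.

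*Hk2*, which traps glucose in the cell as glucose 6-phosphate, was measured at 19.1, 18.1, 12.1 and 9.61 CPM in control tumors 1 to 4 and at 15.1, 19.4, 45.5 and 52.3 CPM in *MMTV-cre;Ctsd-/-* tumors 1 to 4. *MMTV-cre;Ctsd-/-* tumors 3 and 4 lay above all others, tumor 2 above the highest control and tumor 1 within the range of the controls. For *Hk2*, tumor 2 passed the highest control by little (19.4 against 19.1 CPM). The log2 fold change of *Hk2* was 1.17 ± 0.41 (SE), with an edgeR adjusted p of 0.532. *Epas1* had the same layout, with 56.0, 44.5, 41.6 and 16.1 CPM in controls and 31.0, 62.5, 129 and 153 CPM in *MMTV-cre;Ctsd-/-* tumors (1.25 ± 0.50, edgeR adjusted p = 0.545). HIF2α is abundant in endothelium and in fat, and in these bulk samples more cells of a type and more RNA per cell cannot be told apart. *Slc16a1*, which encodes the lactate and pyruvate carrier MCT1, ranged from 12.9 to 23.7 CPM in controls and from 23.5 to 35.6 CPM in *MMTV-cre;Ctsd-/-* tumors, with an overlap of 1 sample (0.76 ± 0.23, edgeR adjusted p = 0.465). *Vegfa* was measured at 4.55, 4.83, 6.60 and 5.96 CPM against 7.08, 7.69, 7.83 and 10.1 CPM, without overlap (0.58 ± 0.25, edgeR adjusted p = 0.555). The sensor *Egln1* was close to the threshold (0.41 ± 0.22, edgeR adjusted p = 0.596), and its groups overlapped.

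Of the genes that were lower, *Car12*, a membrane carbonic anhydrase of luminal epithelium, was measured at 208, 175, 204 and 151 CPM in controls and at 149, 123, 114 and 79.1 CPM in *MMTV-cre;Ctsd-/-* tumors (-0.67 ± 0.23, edgeR adjusted p = 0.521). The groups touched at 151 and 149 CPM without overlap. *Aldoc* was measured at 1138, 719, 1063 and 1274 CPM and at 565, 1206, 276 and 298 CPM (-0.84 ± 0.45, edgeR adjusted p = 0.592), with *MMTV-cre;Ctsd-/-* tumor 2 among the highest of all. *Car9*, the carbonic anhydrase most tightly tied to hypoxia, gave no call: controls had 40.7, 19.0, 64.2 and 47.1 CPM and *MMTV-cre;Ctsd-/-* tumors 19.6, 62.3, 8.03 and 6.32 CPM, with tumors 3 and 4 lowest. *Bnip3*, a mitophagy receptor, ran from 34.5 to 191 CPM in controls and from 42.7 to 279 CPM in *MMTV-cre;Ctsd-/-* tumors (0.86 ± 0.61, edgeR adjusted p = 0.663). *Ldha* stood at 2136 to 3681 CPM in controls, the highest value being that of control tumor 4, and at 1795 to 2035 CPM in *MMTV-cre;Ctsd-/-* tumors (-0.43 ± 0.24, edgeR adjusted p = 0.602). Control tumor 4 also carried 1104 CPM of the 8 skeletal muscle markers, against 5.09 to 262 CPM in the other tumors.

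**Figure D3:**
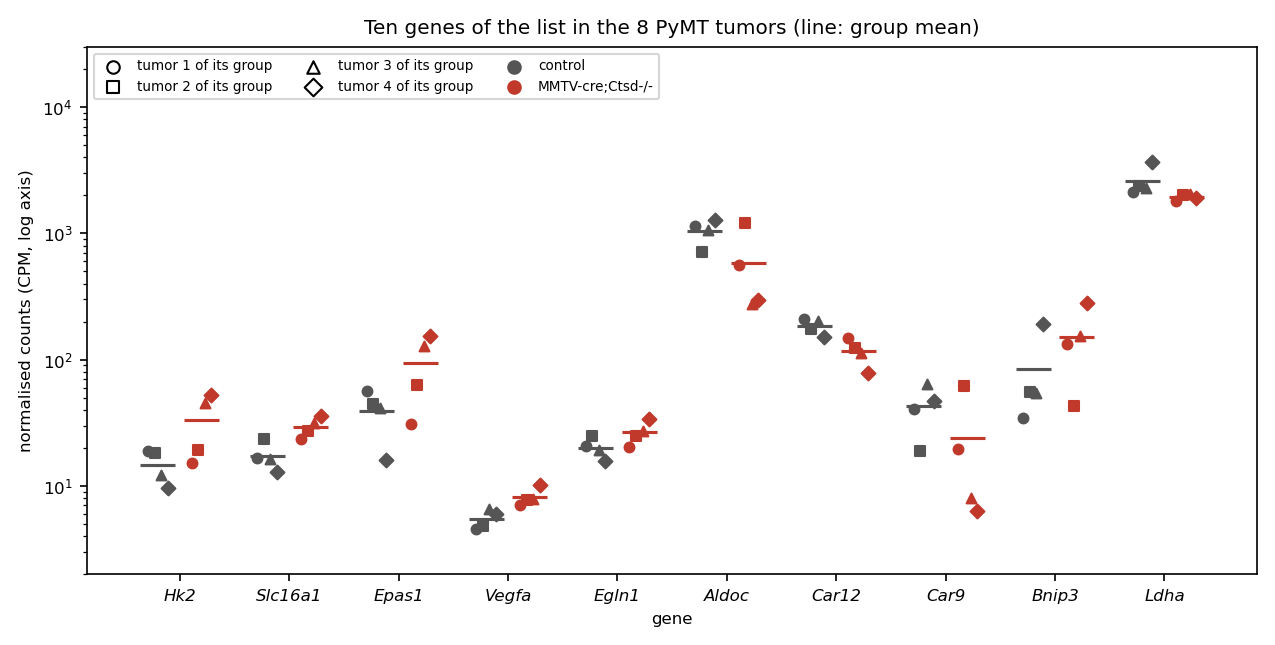
CPM (log axis) of 10 genes of the list in the 8 tumors; grey symbols are control and red symbols MMTV-cre;Ctsd-/- tumors, shapes mark the tumor number within its group and lines group means. MMTV-cre;Ctsd-/- tumors 3 and 4 (triangle and diamond) have the highest Hk2 (45.5 and 52.3 CPM) and Epas1 and the lowest Aldoc and Car9.

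With the mean level of the adipocyte markers as a covariate, 0 of the 35 genes were called higher by edgeR at an unadjusted p under 0.1. None of the 7 genes passed, while *Ldha* (-0.68) and *Pgk1* (-0.77), which had no call before, were called lower. The log2 fold change was then 0.14 for *Hk2*, -0.05 for *Aldoc*, -0.15 for *Car12*, 0.13 for *Egln1*, 0.51 for *Epas1*, 0.48 for *Slc16a1* and 0.42 for *Vegfa*. All 8 adipocyte markers were themselves higher in *MMTV-cre;Ctsd-/-* tumors, so this fit cannot set their level fully apart from genotype. Without *MMTV-cre;Ctsd-/-* tumors 3 and 4, an alternative added after the values were seen, *Hk2* was at 0.23, *Epas1* at 0.24, *Slc16a1* at 0.55, *Vegfa* at 0.43, *Egln1* at 0.17, *Aldoc* at -0.24 and *Car12* at -0.43. Again none of the 7 passed, while *Pfkp* (-0.61) and *Adm* (-0.84) were called lower. Without *MMTV-cre;Ctsd-/-* tumor 4 alone, 2 genes were called higher (*Hk2* and *Slc16a1*) and 1 lower, and without its tumor 1, 8 and 1. The count of lower genes was 4 without *MMTV-cre;Ctsd-/-* tumor 2 or 3 and 1 without control tumor 4. The control tumors carry 1 library code in their descriptions and the *MMTV-cre;Ctsd-/-* tumors another, so that code and genotype cannot be told apart.

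Around the list, other genes of glycolysis and pyruvate metabolism were higher in *MMTV-cre;Ctsd-/-* tumors in 16 of 45 cases and lower in 1 (median log2 fold change 0.36), where 8.44% of all genes were higher and 8.27% lower. Other hypoxia genes were so in 8 and 4 of 56 (median -0.06), and genes of the pentose phosphate pathway, which makes NADPH, in 4 and 0 of 7 (median 0.57). *Pcx*, the pyruvate carboxylase, averaged 68.0 CPM in controls and 527 CPM in *MMTV-cre;Ctsd-/-* tumors (2.95 ± 0.64, edgeR adjusted p = 0.292), and *Gpd1*, which makes glycerol 3-phosphate, 87.0 and 481 CPM (2.47 ± 0.58). *Pygl*, the liver glycogen phosphorylase, averaged 9.11 and 88.9 CPM (3.29 ± 0.68), *Dlat*, a subunit of pyruvate dehydrogenase, 36.7 and 72.8 CPM (0.99 ± 0.28) and *Rpia*, of the pentose phosphate pathway, 4.17 and 6.19 CPM (0.57 ± 0.26). *Pgf*, the placental growth factor, was lower, with 61.0 and 27.0 CPM (-1.18 ± 0.31). The 28 calls of higher levels in these lists were 0 with the adipocyte covariate and 6 without *MMTV-cre;Ctsd-/-* tumors 3 and 4.

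The second question was how the genes differ between *Ctsd-/-* and *Ctsd+/+* cells after 10 days in 1% FCS. In the edgeR fit of all 12 samples, 11 of the 35 genes were lower at an adjusted p under 0.05, where 25.1% of the 15178 genes tested were, and 4 were higher, where 23.5% of all were. Past 2-fold as well, 7 genes were lower (14.6% of all) and 2 were higher (10.3% of all). The median log2 fold change was -0.10, and 0.00 over all genes. In this comparison and in that at 12 weeks, fell and rose stand for lower and higher in *Ctsd-/-* than in *Ctsd+/+* cells, not for a change over time. Of the 9 hypoxia targets 5 fell and 1 rose. Of the 10 genes of uptake and the preparatory steps 2 fell and 3 rose, and of the 6 genes of the payoff steps 1 fell.

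Among genes of uptake and glycolysis, *Slc2a1*, the glucose transporter GLUT1, was measured at 179, 211 and 167 CPM in 1% FCS *Ctsd+/+* cells and at 92.2, 120 and 106 CPM in 1% FCS *Ctsd-/-* cells (-0.81 ± 0.13, edgeR adjusted p = 0.000365). *Pfkp* fell from 64.9 to 82.2 CPM to 26.2 to 33.3 CPM (-1.33 ± 0.20, edgeR adjusted p = 0.000182), and *Eno1*, the main enolase, from 1313 to 1388 CPM to 638 to 1017 CPM (-0.65 ± 0.16). None of these groups overlapped. *Aldoc* rose from 16.0, 6.78 and 4.48 CPM to 19.0, 24.5 and 23.6 CPM (1.301 ± 0.366), and *Hk1* by 0.34 ± 0.09 and *Hk2* by 0.42 ± 0.16. The change of *Hk2* was past the threshold by little (edgeR adjusted p = 0.0481) and did not pass without 1% FCS *Ctsd+/+* sample 1 (0.162) or 3 (0.103), without 1% FCS *Ctsd-/-* sample 1 (0.119) or 2 (0.142), or in the 8 libraries of 1 code (0.242). In all, its call was lost in 10 of 20 alternatives, with the direction kept. They included DESeq2 size factors (0.0592) and at least 10 counts in every sample (0.0591). Past 2-fold, 1 gene instead of 2 was higher without 1% FCS *Ctsd+/+* sample 3.

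For lactate and pyruvate, *Slc16a3*, the lactate exporter MCT4, was low throughout and was measured at 5.43, 4.92 and 3.95 CPM against 0.730, 2.44 and 1.36 CPM (-1.66 ± 0.44, edgeR adjusted p = 0.00800). *Pdk3*, a kinase that shuts pyruvate dehydrogenase, fell from 40.2 to 43.7 CPM to 21.1 to 25.7 CPM (-0.81 ± 0.12). *Ldha* was lower in all 3 *Ctsd-/-* samples, with 906 to 1091 CPM against 448 to 890 CPM, at an edgeR adjusted p of 0.0518.

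The factor *Epas1* was measured at 19.7, 12.5 and 9.06 CPM in 1% FCS *Ctsd+/+* cells and at 4.26, 1.45 and 2.07 CPM in 1% FCS *Ctsd-/-* cells (-2.40 ± 0.43, edgeR adjusted p = 0.000785), whereas *Hif1a* did not pass, with 140 to 146 against 132 to 141 CPM (-0.08 ± 0.08). Of the targets, *P4ha1*, a subunit of the collagen prolyl 4-hydroxylase, was measured at 226, 198 and 129 CPM against 47.2, 43.9 and 41.1 CPM (-2.07 ± 0.17, edgeR adjusted p = 2.91e-06). This was the strongest test of the list in this comparison. *Vegfa* was measured at 128, 520 and 204 CPM against 66.5, 82.6 and 58.0 CPM (-2.04 ± 0.40), and the 1% FCS *Ctsd+/+* samples alone spread over a wide range. *Car12* (-1.64 ± 0.38), *Adm*, the vasodilator adrenomedullin (-1.46 ± 0.36), and *Ankrd37* (-0.74 ± 0.24) fell too, the last with an edgeR adjusted p of 0.0542 to 0.109 without 1% FCS *Ctsd+/+* sample 1 or 3 or *Ctsd-/-* sample 1 or 3. *Car9* went the other way, from 4.05, 5.25 and 2.51 CPM to 11.5, 32.3 and 37.0 CPM (2.77 ± 0.59, edgeR adjusted p = 0.00216).

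Beside these values, the fibroblast list lay at 1473 to 3629 CPM in 1% FCS *Ctsd+/+* cells and at 8.34 to 33.3 CPM in 1% FCS *Ctsd-/-* cells, with 6 of the 6 tested markers lower in the latter, and the epithelial list was higher there in 7 of 7. Both tested adipocyte markers were higher there too (summed 100.1 to 108 CPM against 46.3 to 56.7 CPM). Their part in the change of *P4ha1*, *Vegfa*, *Epas1* and the rest was not tested.

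**Figure D4:**
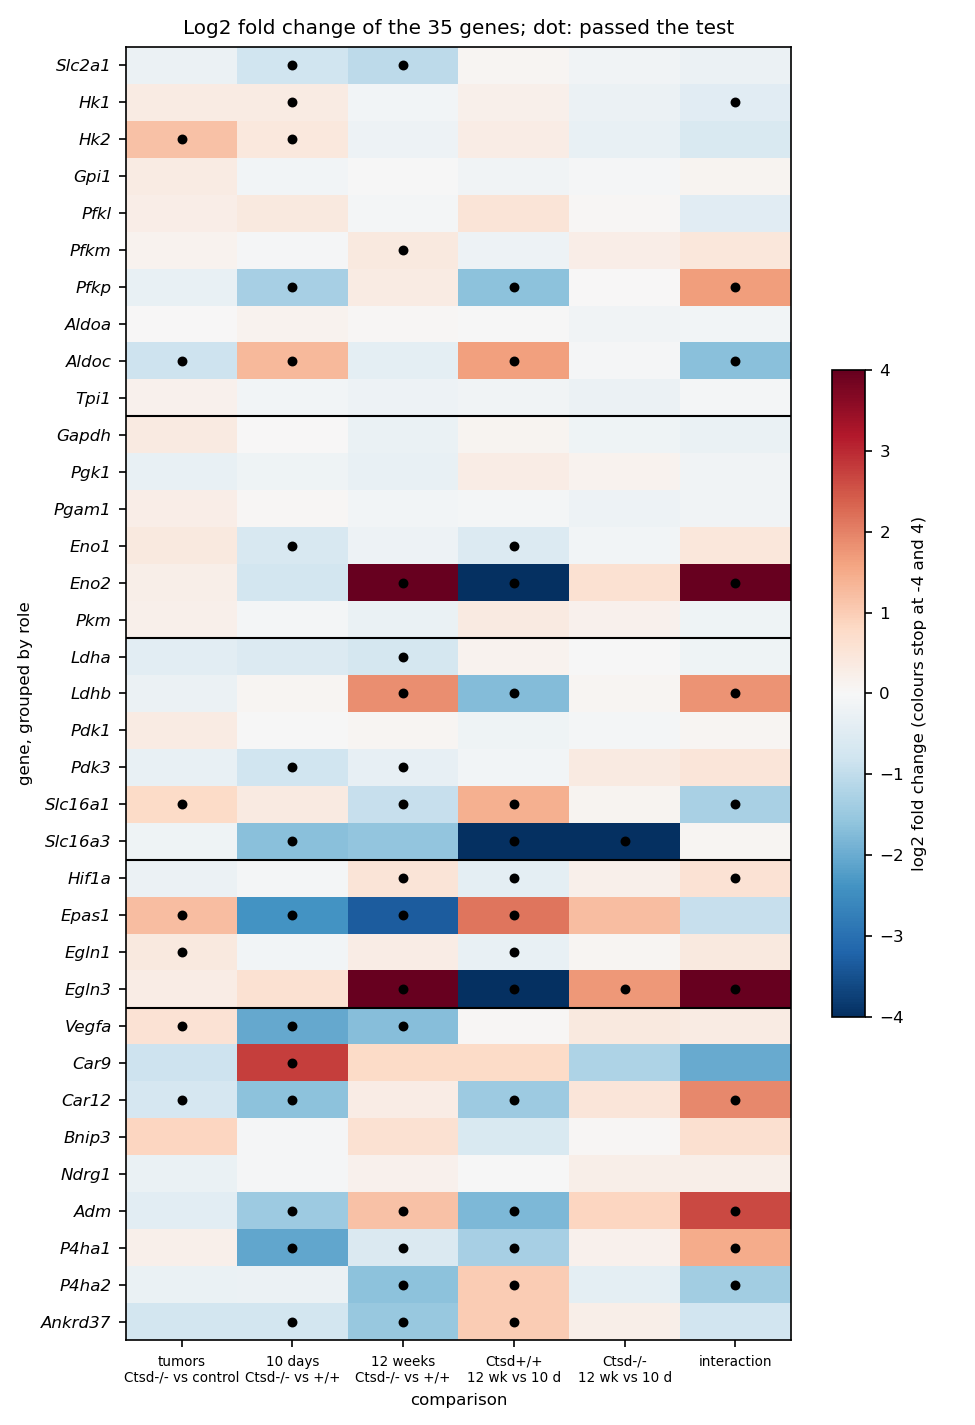
Log2 fold change (colour, red higher and blue lower, colours stop at -4 and 4) of the 35 genes in the 5 comparisons and the interaction of genotype and culture time, with genes grouped by role; a dot marks a gene past the test (unadjusted p under 0.1 in tumors, adjusted p under 0.05 in cells). The dots thin out in the column of Ctsd-/- cells over time, where 2 genes passed.

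After 12 weeks in 1% FCS, where both lines had low fibroblast markers (3.24 to 8.47 CPM in *Ctsd+/+* and 11.5 to 104 CPM in *Ctsd-/-* cells), 9 of the 35 genes were lower in *Ctsd-/-* cells at an edgeR adjusted p under 0.05, where 19.1% of all genes tested were, and 6 were higher, where 20.5% of all were. Past 2-fold, 5 were lower (10.1% of all) and 4 higher (9.24% of all). The median log2 fold change of the list was -0.10, and 0.01 over all genes. *Slc2a1*, *Pdk3*, *Epas1*, *Vegfa*, *P4ha1* and *Ankrd37* were lower in *Ctsd-/-* cells at both times, none of the list was higher at both, and *Adm* passed in opposite directions. The call of *Pdk3* at 12 weeks was lost in 11 of 20 alternatives and that of *Ankrd37* at 10 days in 7 of 20, with the direction kept. These contrasts share no sample but compare the same 2 lines. The shares of all genes that were lower or higher at both times were not determined, so these overlaps are not read as a trait of the list.

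*Slc2a1* was measured at 192, 176 and 226 CPM in 1% FCS LT *Ctsd+/+* cells and at 91.1, 99.9 and 98.8 CPM in 1% FCS LT *Ctsd-/-* cells (-1.04 ± 0.13, edgeR adjusted p = 9.11e-05). *Ldha* fell from 942 to 1254 CPM to 567 to 727 CPM (-0.72 ± 0.22, edgeR adjusted p = 0.0202), and *Ldhb* rose from 8.19, 6.58 and 3.73 CPM to 30.6, 16.9 and 20.2 CPM (1.87 ± 0.33). The lactate dehydrogenase subunits thus differed in opposite directions between the lines. *Slc16a1* fell from 140 to 248 CPM to 90.9 to 103 CPM (-0.93 ± 0.18). *Eno2*, the neuronal enolase, had 8, 5 and 11 counts in 1% FCS LT *Ctsd+/+* cells against 241, 116 and 222 counts in the *Ctsd-/-* line (4.47 ± 0.68), which is a large ratio of a transcript that made up 0.677% of enolase at most as a group mean. *Pfkm*, the muscle phosphofructokinase, rose by 0.40 ± 0.14, and its call was lost in 8 of 20 alternatives, with the direction kept.

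*Epas1* was measured at 85.3, 62.4 and 35.2 CPM against 7.33, 5.00 and 5.97 CPM (-3.32 ± 0.43, edgeR adjusted p = 0.000111), the largest fall of the list, while *Hif1a* rose from 115, 100 and 113 CPM to 150, 158 and 157 CPM (0.50 ± 0.08, edgeR adjusted p = 0.000504). The 2 factors thus differed in opposite directions between the lines. *Egln3*, the prolyl hydroxylase known as a HIF target, was measured at 28.3, 17.4 and 9.00 CPM in 1% FCS LT *Ctsd-/-* cells, whereas the *Ctsd+/+* line had 2, 4 and 3 counts at that time (7.79 ± 0.60, edgeR adjusted p = 2.80e-06). The size of this fold change rests on those few counts. *Egln1* had values of 60.8 to 74.8 and 76.2 to 87.2 CPM, without overlap, at an edgeR adjusted p of 0.0508.

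Of the targets, *Vegfa* was measured at 244, 268 and 365 CPM against 95.9, 82.5 and 91.3 CPM (-1.70 ± 0.40, edgeR adjusted p = 0.00510). *P4ha2*, the second catalytic subunit of collagen prolyl hydroxylase, fell from 74.2, 118 and 102 CPM to 29.7, 27.9 and 37.4 CPM (-1.63 ± 0.22), and *P4ha1* from 68.7, 78.2 and 74.0 CPM to 49.6, 53.2 and 45.7 CPM (-0.57 ± 0.17). *Ankrd37* fell by 1.51 ± 0.24 on the log2 scale, and *Adm* rose by 1.18 ± 0.37 from 0.838, 0.719 and 1.47 CPM to 1.89, 1.93 and 3.05 CPM. *Car9*, *Car12*, *Bnip3* and *Ndrg1* did not pass.

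Some of the smaller changes depended on 1 library or on a setting. *Pdk3* did not pass with the replicate block (edgeR adjusted p = 0.0595), with no low-count filter (0.133), with counts regardless of strand (0.0516) or in 8 fits without 1 library, with an edgeR adjusted p of up to 0.184. Without 1% FCS LT *Ctsd+/+* sample 2 the edgeR adjusted p was 0.0807 for *Ldha*, 0.0593 for *P4ha1*, 0.0926 for *Adm*, 0.0834 for *Pfkm* and 0.184 for *Pdk3*, and without 1% FCS LT *Ctsd-/-* sample 3 it was 0.0780, 0.0627, 0.0949, 0.169 and 0.0748. Without 1% FCS LT *Ctsd+/+* sample 1 it was 0.0806 for *Adm*, 0.151 for *Pfkm* and 0.0791 for *Pdk3*. The directions held in each of these fits. The macrophage list lay at 56.0 to 64.2 CPM in 1% FCS LT *Ctsd+/+* cells, nearly all of it *Csf1r*, and at 9.15 to 25.2 CPM in the *Ctsd-/-* line at that time. Of its 3 tested markers 2 were lower and 1 higher in the latter, and of the 6 tested fibroblast markers 3 were higher. Their part in the differences was not tested.

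**Figure D5:**
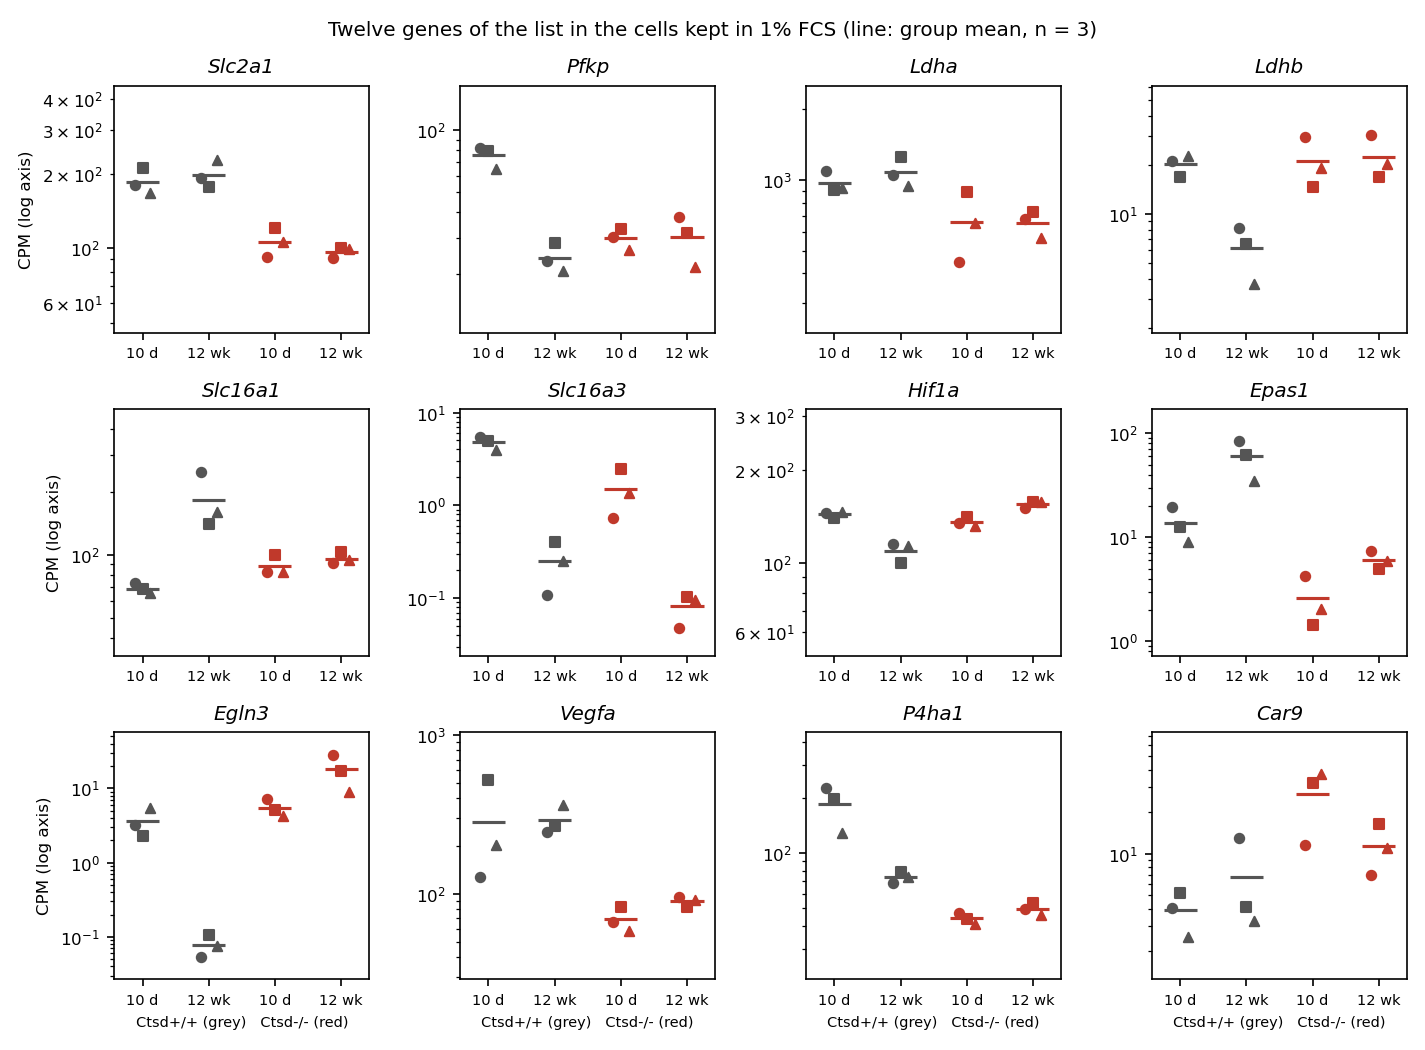
CPM (log axes, 1 scale per gene) of 12 genes in the 12 cell samples after 10 days (10 d) and 12 weeks (12 wk) in 1% FCS; grey is Ctsd+/+, red is Ctsd-/-, symbols are samples and lines group means, n = 3. Slc2a1 and Vegfa are lower in Ctsd-/- cells at both times, and Egln3 is near 0 only in 12-week Ctsd+/+ cells (0.054 to 0.107 CPM).

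The comparison of 12 weeks with 10 days in *Ctsd+/+* cells gave 11 genes lower, where 23.4% of all genes were lower at an edgeR adjusted p under 0.05, and 5 higher, where 23.0% of all were. Past 2-fold 8 were lower (12.3% of all) and the same 5 higher (11.0% of all), and 2 of those 5, *P4ha2* and *Ankrd37*, were at a log2 fold change of 1.00. The median of the list was -0.08, and 0.00 over all genes. *Egln3* fell from 108, 74 and 205 counts to 2, 4 and 3 counts (-5.46 ± 0.60), *Eno2* from 82 to 313 counts to 5 to 11 counts (-4.59 ± 0.68) and *Slc16a3* from 151 to 181 counts to 4 to 15 counts (-4.21 ± 0.51, edgeR adjusted p = 4.67e-05). At 12 weeks these 3 transcripts had at most 15 counts in a sample of this line. *Ldhb* (-1.72 ± 0.33), *Pfkp* (-1.65 ± 0.20), *Adm* (-1.79 ± 0.37), *Car12* (-1.44 ± 0.37), *P4ha1* (-1.32 ± 0.17), *Eno1* (-0.56 ± 0.16), *Hif1a* (-0.39 ± 0.08) and *Egln1* (-0.30 ± 0.11) were lower as well. *Epas1* rose from 9.06 to 19.7 CPM to 35.2 to 85.3 CPM (2.15 ± 0.41), *Slc16a1* from 65.7 to 72.9 CPM to 140 to 248 CPM (1.41 ± 0.18), *Aldoc* from 4.48 to 16.0 CPM to 24.0 to 35.5 CPM (1.65 ± 0.37), *P4ha2* from 43.4 to 55.1 CPM to 74.2 to 118 CPM and *Ankrd37* from 1.71 to 2.02 CPM to 3.32 to 4.58 CPM. Over the same time the fibroblast list went from 1473 to 3629 CPM to 3.24 to 8.47 CPM in this line, and its part in these changes was not tested. Without 1% FCS LT *Ctsd+/+* sample 2, 3 genes instead of 5 were past 2-fold and higher, and *Eno1* did not pass without its sample 3 (edgeR adjusted p = 0.0642). *Egln1* lost its call in 8 of 20 alternatives, with an edgeR adjusted p of up to 0.170. These were the fits with no low-count filter, in the 8 libraries of 1 code, and without 1% FCS *Ctsd+/+* sample 1, 2 or 3, 1% FCS *Ctsd-/-* sample 3 or 1% FCS LT *Ctsd+/+* sample 1 or 3.

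In *Ctsd-/-* cells the same span of culture changed few genes, 1.57% of all higher and 0.810% lower at an edgeR adjusted p under 0.05. Of the list, *Slc16a3* was lower and *Egln3* higher, both past 2-fold, a rule that 0.369% of all genes met as lower and 1.11% as higher. *Slc16a3* went from 30, 89 and 46 counts to 2, 4 and 4 counts (-4.14 ± 0.57, edgeR adjusted p = 0.00819), so that this carrier was near its detection limit in both lines at 12 weeks. *Egln3* went from 7.15, 5.12 and 4.20 CPM to 28.3, 17.4 and 9.00 CPM (1.73 ± 0.41, edgeR adjusted p = 0.0499), and it did not pass in 8 fits without 1 library, in which the edgeR adjusted p was 0.0642 to 0.198, with limma-voom (0.0721) or with the replicate block (0.0573). Those libraries were 1% FCS *Ctsd-/-* samples 1, 2 and 3, 1% FCS LT *Ctsd-/-* samples 1 and 2 and the 3 samples of 1% FCS LT *Ctsd+/+* cells, which enter through the shared spread. The other 33 genes did not pass, and the median log2 fold change was 0.06. *Epas1* (1.22 ± 0.43), *Car9* (-1.24 ± 0.55) and *Adm* (0.85 ± 0.36) had the next largest values, with edgeR adjusted p of 0.159, 0.262 and 0.243.

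Whether the change over time differed between the lines was tested by the interaction, the genotype difference at 12 weeks minus that at 10 days. By edgeR at an adjusted p under 0.05, it was positive in 8 of the 35 genes, where 16.1% of all were, and negative in 4, where 14.1% of all were. Past 2-fold it was positive in 7 (11.0% of all) and negative in 3 (8.12% of all). *Egln3* (7.19 ± 0.73), *Eno2* (5.19 ± 0.87), *Adm* (2.64 ± 0.52), *Car12* (1.92 ± 0.53), *Ldhb* (1.81 ± 0.46), *Pfkp* (1.67 ± 0.28), *P4ha1* (1.49 ± 0.24) and *Hif1a* (0.59 ± 0.12) were positive. All 8 had fallen over time in the *Ctsd+/+* line. *Aldoc* (-1.69 ± 0.51), *P4ha2* (-1.39 ± 0.31), *Slc16a1* (-1.29 ± 0.25) and *Hk1* (-0.44 ± 0.13) were negative. *Hk1* lost the call in 8 of 20 alternatives and *Aldoc* in 6 of 20, with the direction kept. *Slc2a1* (-0.23 ± 0.18), *Vegfa* (0.34 ± 0.55) and *Epas1* (-0.92 ± 0.58), which were lower in *Ctsd-/-* cells at both times, did not pass, with edgeR adjusted p of 0.384, 0.683 and 0.262. The median of the list was 0.07. The 1% FCS *Ctsd+/+* cells with their fibroblast markers enter this contrast too, and their part in it was not tested.

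The rest of the pathway was followed with 50 other genes of glycolysis and pyruvate metabolism, 58 other hypoxia genes and 7 of the pentose phosphate pathway, of which 38, 51 and 7 were tested in cells. At 10 days the hypoxia genes were lower in *Ctsd-/-* cells in 25 of 51 and higher in 16 (median log2 fold change -0.36), where 25.1% of all genes were lower and 23.5% higher. The glycolysis genes were lower in 13 and higher in 10 of 38 (median -0.05) and the pentose phosphate genes higher in 3 of 7 (median 0.14). *Lox*, the collagen crosslinking enzyme, was measured at 1320, 1065 and 463 CPM in 1% FCS *Ctsd+/+* cells and had 17, 9 and 5 counts in 1% FCS *Ctsd-/-* cells. *Pdk4*, another pyruvate dehydrogenase kinase, averaged 40.2 CPM and had no counts, at least 498-fold lower against 3 counts per library. *Igfbp3*, which binds insulin-like growth factors, had 288 to 462 counts against 3 counts in 1 of 3 samples. *Stc2* was measured at 119.3, 16.55 and 12.98 CPM against 3.02, 2.55 and 1.51 CPM (-4.39 ± 1.07). The first of these samples lay far above the others of its group. The glucose transporter genes *Slc2a6* and *Slc2a10* averaged 3.15 CPM against 0.178 CPM and 0.688 CPM against 1 count in total over 3 samples, while *Rpia* rose from 29.9 to 125 CPM (2.06 ± 0.26).

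At 12 weeks the hypoxia genes were lower in *Ctsd-/-* cells in 14 and higher in 13 of 51 (median -0.05), where 19.1% of all genes were lower and 20.5% higher. The glycolysis genes were lower in 7 and higher in 10 of 38 (median 0.16) and the pentose phosphate genes lower in 3 of 7 (median -0.22). *Igfbp3* stood at 127, 284 and 331 CPM in 1% FCS LT *Ctsd+/+* cells and had 1 count in total over the 3 1% FCS LT *Ctsd-/-* samples. *Pfkfb4*, an enzyme that sets the level of the phosphofructokinase activator fructose 2,6-bisphosphate, rose from 8.08 to 50.7 CPM (2.65 ± 0.17, edgeR adjusted p = 8.36e-07). *Pgf* averaged 0.333 CPM in 1% FCS LT *Ctsd+/+* and 54.0 CPM in 1% FCS LT *Ctsd-/-* cells (7.33 ± 0.72), and 13.6 and 57.8 CPM at 10 days. *G6pdx*, the entry enzyme of the pentose phosphate pathway, fell from 396 to 190 CPM (-1.06 ± 0.15). *Pdk4* averaged 3.84 CPM against 1 count in total over 3 samples, *Slc2a6* 1 to 3 counts against 6 to 39, and *P4ha3* had no counts in 1% FCS LT *Ctsd+/+* cells and 35, 8 and 4 counts in the *Ctsd-/-* line.

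Over time, the *Ctsd+/+* line had 18 of the 51 hypoxia genes lower and 16 higher (median -0.14), where 23.4% of all genes were lower and 23.0% higher. It had 12 and 9 of the 38 glycolysis genes (median -0.06) and 1 and 4 of the 7 pentose phosphate genes (median 0.43). *Lox* (-10.68 ± 0.69), the VEGF receptor gene *Flt1* (-7.60 ± 0.53), and *Pdk4* (-3.39 ± 0.40) fell. *Slc2a6* went from 90 to 140 counts to 1 to 3 counts and *Slc2a10* from 21 to 28 counts to 1 count in total over 3 samples, and *P4ha3* from 158, 86 and 30 counts to none. *Ctsd-/-* cells had 2 hypoxia genes higher and 1 lower, where 1.57% of all genes were higher and 0.810% lower. They had 0 of the glycolysis genes, of which 8 were at an unadjusted p under 0.05, and 0 of the pentose phosphate genes, of which 1 was. *Arnt2*, a partner of the HIF factors, rose from 9.94 to 29.7 CPM (1.57 ± 0.29). In the interaction 13 hypoxia genes were positive and 7 negative, where 16.1% and 14.1% of all genes were, 8 and 7 of the glycolysis genes, and 0 and 4 of the pentose phosphate genes. *Flt1* (6.83 ± 0.64), *Arnt2* (5.44 ± 0.42) and *Eno3* (3.00 ± 0.52) were positive and *Pcx* (-2.55 ± 0.27), *Ldhd* (-2.08 ± 0.42) and *Rpia* (-1.44 ± 0.35) negative.

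How the reads were counted limits some of these genes. Reads that fell on overlapping genes were set aside, 7.11% to 15.6% of a tumor and 1.11% to 1.25% of a cell sample in the columns used, and in tumors, whose counts ignore strand, *Ndrg1* and *Ankrd37* kept 61.2% and 62.9% of what both stranded columns hold. In cells 33.3% of the stranded counts of *Slc16a3* and 15.9% of those of *Pfkp* lay in the other stranded column, which was not used. *Gapdh*, *Pgk1*, *Pgam1*, *Eno1*, *Aldoa* and *Ldha* have near copies in the genome, and reads that mapped to several places (4.57% to 8.28% of a sample) were not counted, so that levels of these genes are uncertain.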

How the data were processed

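RNA of 8 tumors and 12 cell samples was sequenced on an Illumina HiSeq4000. The authors trimmed reads with Trimmomatic, used STAR for alignment against GRCm38 and deposited the raw counts of each gene in columns for unstranded and stranded libraries; tool settings and annotation release are not given in the sources used here. The strand-independent counts were used for tumors, where 52.8% to 53.7% of stranded counts lay in the opposite-strand column, and the opposite-strand counts for cells (97.1% to 97.3%). The summary rows that name no gene (24.7% to 32.7% of a tumor, 14.8% to 18.9% of a cell sample) were left out. Gene symbols came from GENCODE M21.

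Counts were scaled by TMM, filtered by filterByExpr (18617 genes tested in tumors, 15178 in cells) and tested two-sided with edgeR 4.0.16 (glmQLFit, R 4.3.3), tumors and cells in separate fits, with p-values adjusted by Benjamini-Hochberg across every gene tested. Tumor genes were called at an unadjusted p under 0.1, and cell genes at an adjusted p under 0.05, with and without an absolute log2 fold change above 1. The scripts were tested on simulated data. Alternatives were DESeq2 1.42.0, its size factors, limma-voom (limma 3.58.1), other filters and count columns, marker covariates, the replicate block, the 8 cell libraries of 1 code and leaving out each sample. Leaving out *MMTV-cre;Ctsd-/-* tumors 3 and 4 was added after the data were seen. The cells carry 3 library codes. Besides the code of 8 libraries, 1 code is found only in sample 1 of both 1% FCS groups. The other is found only in sample 3 of both 1% FCS LT groups, so code and culture time are partly confounded. All 35 genes are named where described, and from each list of other pathway genes up to 3 per comparison with the largest fold change among those called with groups that did not overlap, or in the interaction with an average log2 CPM above 1.3. One gene that this rule selects is not reported here. The genes and lists were chosen with earlier results of these data known. The study gives the 3 samples of each cell group as independent experiments. They are of 1 line per genotype, so the spread between them does not cover differences between mice.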

Additional observations from a re-analysis of the deposited data

Results flagged for a closer look

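In 70 groups of 4 tumors, 1 sample lay far from the other 3 by Dixon's criterion in 4, where chance gives about 3.5. *Gpi1* was lowest in *MMTV-cre;Ctsd-/-* tumor 1, at 225.1 CPM. *Pgk1* (251.9 CPM), *Ldha* (3681 CPM) and *Bnip3* (191 CPM) were highest in control tumor 4, in which the skeletal muscle markers summed to 1104 CPM, and the part of these markers in the values was not tested.

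In 12 of the 35 genes the genotype difference in cells was not the same at 12 weeks and at 10 days by the edgeR interaction test with adjustment over all genes. It was positive in 8, where 16.1% of all genes were, and negative in 4, where 14.1% of all were. The interaction on the log2 scale was 7.19 for *Egln3* (adjusted p = 3.23e-05), 5.19 for *Eno2* (0.000998), 2.64 for *Adm* (0.00263), 1.92 for *Car12* (0.0172), 1.81 for *Ldhb* (0.0113), 1.67 for *Pfkp* (0.000917), 1.49 for *P4ha1* (0.000705) and 0.59 for *Hif1a* (0.00272). It was -1.69 for *Aldoc* (0.0269), -1.39 for *P4ha2* (0.00518), -1.29 for *Slc16a1* (0.00249) and -0.44 for *Hk1* (0.0259).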

How the results depend on the processing

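Genes of the list and *Ctsd* were followed under the alternatives in each comparison in which they were called, and none changed direction there. They kept their call in 525 of these refits and lost it in 41, and in 732 and 76 when a sample was left out. Genes without a call were followed only for gained calls, which some had. *Bnip3* was called higher in tumors without control tumor 4 (log2 fold change 1.65), and *Slc16a3* lower at 12 weeks with DESeq2 (adjusted p = 0.0464). Leaving out each sample in turn gave 2 to 8 genes higher and 1 to 4 lower in tumors, 1 to 2 and 7 to 7 past 2-fold at 10 days, 3 to 4 and 4 to 6 at 12 weeks, 3 to 5 and 8 to 8 over time in *Ctsd+/+* cells, 0 to 1 and 1 to 1 in *Ctsd-/-* cells, and 7 to 7 and 2 to 4 in the interaction. In tumors 0 genes were higher with the adipocyte covariate and 0 without *MMTV-cre;Ctsd-/-* tumors 3 and 4, and 1 was lower with the epithelial covariate. With the adipocyte covariate *Ldha* and *Pgk1* were called lower, and without those tumors *Pfkp* and *Adm*. With at least 10 counts in every sample, which removes low genes from the test, 2 genes were higher at 12 weeks, 5 lower over time in *Ctsd+/+* cells, and 0 higher and 0 lower in *Ctsd-/-* cells. Over time in *Ctsd+/+* cells 3 were higher with DESeq2 size factors, 3 with DESeq2, 3 with limma-voom, 3 with no low-count filter and 3 with counts regardless of strand, where *P4ha2* and *Ankrd37* lie at the 2-fold limit. In *Ctsd-/-* cells 2 were higher with DESeq2, 0 with limma-voom and 2 in the 8 libraries of 1 code; the cause was not tested. The *Slc16a3* share of its family with counts regardless of strand was 6.49%, 0.58% and 0.43% in 1% FCS *Ctsd+/+*, 1% FCS LT *Ctsd+/+* and 1% FCS LT *Ctsd-/-* cells. Few counts limit *Egln3*, *Eno2* and *Slc16a3* at 12 weeks.

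Same-numbered samples deviated together in 0 of 4 tumor pairs and in 7 of 18 cell pairs at a correlation over 0.1, so the numbers were not read as pairing the samples. With the replicate block the counts of higher and lower genes were 4 and 2 in tumors, 2 and 7 at 10 days, 4 and 6 at 12 weeks, 4 and 8 and 1 and 1 over time in *Ctsd+/+* and *Ctsd-/-* cells, and 7 and 3 in the interaction. The 1 higher gene in *Ctsd-/-* cells was then *Epas1* (1.33, edgeR adjusted p = 0.0346) in place of *Egln3* (0.0573), and *Pdk3* at 12 weeks (0.0595) and *Epas1* and *Egln1* in tumors also lost their calls. Other pathway genes higher in tumors went from 28 to 18 with the block.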

Other observations

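In 1% FCS LT *Ctsd+/+* cells the macrophage markers summed to 56.0 to 64.2 CPM, against 6.63 to 27.2 CPM in the other 3 cell groups. Nearly all of this was *Csf1r*, at 55.2 CPM on average, while *C1qb* and *C1qc* had no counts. *Cd68* averaged 3.52 CPM there and 2.83 CPM in 1% FCS *Ctsd+/+* cells. In *Ctsd-/-* cells it averaged 12.3 CPM at 10 days and 10.3 CPM at 12 weeks.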
